A study of Mus musculus with 6 samples.

Results

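The 7 genes described here encode the cyclin-dependent kinase (CDK) inhibitors of mouse, and they were taken by name from a table of 25759 genes. Of these, 3 belong to the Cip/Kip family (Cdkn1a, Cdkn1b and Cdkn1c) and 4 to the INK4 family (Cdkn2a, Cdkn2b, Cdkn2c and Cdkn2d). All 7 were present in the table. Its unit is FPKM, a fragment count divided by the length of the transcript and the size of the library, and it covers adaptive regulatory T cells (aTreg) of C57BL/6 mice aged 8 to 12 weeks. Lymph node and spleen cells were cultured together for 3 days with the T cell mitogen ConA (2 µg/ml), IL-2 (10 ng/ml) and TGF-beta (3 ng/ml), and cells positive for CD4 and for a Foxp3-GFP reporter were sorted. The 3 wild type (WT) libraries came from mice with this reporter. The 3 BMPR1a-deficient libraries came from mice that carried the same reporter and a CD4cre transgene acting on BMPR, so that BMPR1a, through which cells sense bone morphogenetic proteins, is lost where CD4 has been expressed. A Cre driven by Cd4 acts in thymocytes before the CD4 and CD8 lineages part, so other T cells of these mice lack the receptor too. Nothing in the labels tells if the 3 libraries of a group are separate animals or cultures, so p-values measure only the spread between these libraries, which may be technical. TGF-beta was present in the cultures of both groups, so the comparison holds no library without it.

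CDK inhibitors are small proteins that restrain the kinases driving the cell cycle. INK4 proteins bind CDK4 and CDK6 and keep D-type cyclins off them, whereas Cip/Kip proteins bind assembled cyclin and CDK complexes, above all those of CDK2. Together they hold the retinoblastoma protein in the state that represses E2F-driven genes. In T cells p27, the product of Cdkn1b, is known as a marker of quiescence that is lost on stimulation, p18, the product of Cdkn2c, as a brake on proliferation after T cell receptor signals, and p21, the product of Cdkn1a, as a target of the tumour suppressor p53. TGF-beta is known in epithelial cells for raising p15 and p21, the products of Cdkn2b and Cdkn1a.

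Only 4 of the 7 genes were expressed above a mean of 1 FPKM, the level needed to enter the test, and 0 of these 4 differed between the groups past the threshold, as 1.07% of all genes tested did (limma, adjusted p under 0.05). Cdkn2c came nearest, with a mean of 23.1 ± 2.82 FPKM in WT against 33.6 ± 5.30 in BMPR1a-deficient aTreg (SD, n = 3 per group). Cdkn1a was at 9.52 ± 8.06 and 17.0 ± 7.0 FPKM, with groups that overlapped. Cdkn1b and Cdkn2d were the most abundant, with deficient means 0.978 and 0.944 times those of WT. Cdkn1c, Cdkn2a and Cdkn2b stayed under 1 FPKM in each of the 6 libraries.

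The targeted gene, Bmpr1a, was at 1.39, 2.34 and 1.31 FPKM in the WT libraries and 0.439, 0.720 and 0.691 in the deficient ones. Its deficient mean was 36.7% of the WT mean, and the groups did not overlap, as for 10.4% of all genes tested in that direction. The gene lay near the filter of 1 FPKM and did not pass the threshold (log2 fold change -0.71, SE 0.195, limma adjusted p = 0.183). BMPR1a-deficient replicate 1 stood apart in its mitochondrial transcripts: the 13 mitochondrially encoded protein-coding genes lay on average 3.43 log2 units below WT there (-3.43), against -0.20 in both other libraries of that group. T cell markers were high throughout, with Cd4 at 329 to 359 FPKM in WT and 349 to 436 in deficient libraries and Foxp3 at 49.4 to 62.3 and 51.3 to 96.9. Of the 6 T cell markers, 0 were higher and 1 was lower in deficient libraries without overlap. The lower one was Cd3g, at 506 to 549 FPKM in WT and 474 to 499 in deficient libraries (limma adjusted p = 0.571). Markers of other cells were present at lower levels. The 5 B cell markers summed to 25.4 to 50.5 FPKM in WT and 35.2 to 49.6 in deficient libraries, the 4 plasma cell markers to 23.0 to 27.6 and 19.9 to 31.6, the 5 myeloid markers to 21.8 to 106 and 12.3 to 90.9, and the 3 dendritic cell markers to 1.09 to 1.67 and 1.10 to 1.42. The 2 CD8 T cell markers summed to 32.0 to 41.8 FPKM in WT and 37.9 to 68.4 in deficient libraries, with Cd8a at 8.80 to 11.7 and 13.8 to 29.1 and Cd8b1 overlapping. The 3 NK cell markers summed to 5.53 to 9.31 FPKM in WT and 3.05 to 8.36 in deficient libraries. Most of that sum was Eomes, at 5.40 to 9.24 and 2.45 to 7.58, while Klrb1c was at 0.0692 to 0.126 and 0.598 to 0.760 and Ncr1 was listed at 0 in 5 of the 6 libraries. The part of these cells in the inhibitor values was not tested, and in sorted bulk RNA fewer cells of a type and less RNA per cell cannot be told apart.

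The order of the inhibitors by level was the same at its large steps in both groups. Cdkn2d, which encodes p19INK4d, led with a mean of 93.2 FPKM over the 6 libraries, a level above that of 90.1% of the 13413 genes tested. Cdkn1b followed at 78.3 FPKM, and these 2 did not separate, since Cdkn2d was the higher in only 3 of 6 libraries. Cdkn2c came next at 28.4 FPKM and Cdkn1a at 13.3, with Cdkn2c above Cdkn1a in 6 of 6 libraries. Cdkn1c at 0.505 FPKM lay above Cdkn2a at 0.298 in 6 of 6 libraries, and Cdkn2a lay above Cdkn2b at 0.189 in 5 of 6. The step between Cdkn1a and Cdkn1c is where the expressed inhibitors part from the scarce ones.

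**Figure D1:**
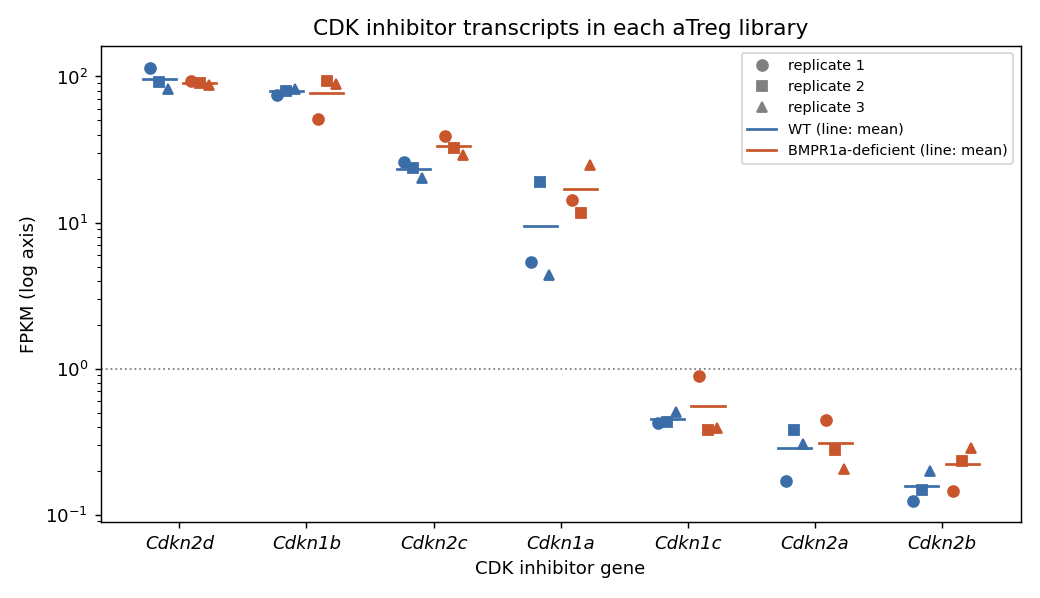
FPKM on a log axis for the 7 CDK inhibitor genes in each library, with WT in blue and BMPR1a-deficient in orange, a marker shape per replicate and a line at each group's mean (n = 3). Cdkn2d and Cdkn1b lie between 51.2 and 115 FPKM, Cdkn2c is the 1 gene whose groups do not overlap, and Cdkn1c, Cdkn2a and Cdkn2b lie under the dotted line at 1 FPKM.

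Of the 4 inhibitors tested, 0 passed an adjusted p of 0.05 (limma on log2(FPKM + 1), Benjamini-Hochberg over 13413 genes), and 1, Cdkn2c, had an unadjusted p under 0.05. The background in the same fit was 1.07% of genes called and 15.2% with an unadjusted p under 0.05. Groups that did not overlap were seen for 1 of the 7 genes, again Cdkn2c, with the deficient libraries on top, against 26.3% of all genes tested in either direction and 15.9% in that one. The summed FPKM of the 7 genes was 209 ± 16.7 for WT and 219.6 ± 17.0 for deficient aTreg (SD, n = 3).

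Cdkn2c (ENSMUSG00000028551, chromosome 4, 109660876 to 109667189 in GRCm38, minus strand) encodes p18INK4c. It was at 25.8, 23.5 and 20.2 FPKM in WT and at 39.4, 32.3 and 29.0 in deficient aTreg. Every deficient library lay above every WT library, and the lowest deficient value exceeded the highest WT value by a narrow margin. The log2 fold change, BMPR1a-deficient minus WT on the log2(FPKM + 1) scale, was 0.52 (SE 0.151, 95% interval 0.15 to 0.88, limma adjusted p = 0.206, unadjusted p = 0.0142). In an exact two-sided permutation test the p was 0.1, and 3 libraries against 3 can give none smaller. When 1 library was left out the fitted value ranged from 0.40 to 0.61, lowest without deficient replicate 1, the library with few mitochondrial transcripts. Of the 22 markers of other cells, Cd8a and Klrb1c were higher in each deficient library than in each WT library, at the levels given above. Klrb1c stayed under 1 FPKM, and the other 20 markers overlapped. Among all genes tested, 26.3% did not overlap in either direction and 15.9% did not with the deficient libraries on top. The part of the marked cells in the Cdkn2c value was not tested.

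Cdkn2d (ENSMUSG00000096472, chromosome 9, 21288410 to 21291407, minus strand) was at 115, 91.0 and 81.6 FPKM in WT and at 93.7, 89.9 and 88.0 in deficient aTreg. The deficient values fell inside the WT range. Its log2 fold change was -0.07 (SE 0.147, 95% interval -0.43 to 0.29, limma adjusted p = 0.837). The SD was 17.2 FPKM in WT, drawn out by replicate 1, and 2.90 in deficient libraries. The ratio of Cdkn2d to Cdkn2c FPKM within a library was 4.46, 3.88 and 4.05 in WT and 2.38, 2.78 and 3.03 in deficient aTreg. These ratios do not depend on how libraries are scaled and the groups did not overlap, but the ratio was chosen after the values were seen, so no test of it is given. As a share of the 7-gene sum, Cdkn2c made up 10.6% to 11.6% in WT and 12.6% to 19.7% in deficient libraries.

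Cdkn1b (ENSMUSG00000003031, chromosome 6, 134920401 to 134925513, plus strand) was at 75.1, 79.8 and 82.7 FPKM in WT and at 51.2, 93.0 and 88.1 in deficient aTreg. The WT libraries were close together, with a coefficient of variation of 4.88%, and the deficient ones were not, at 29.5%, because replicate 1 lay below each WT library and replicates 2 and 3 lay above each. The log2 fold change over all 6 libraries was -0.08 (SE 0.238, 95% interval -0.66 to 0.50, limma adjusted p = 0.886). Without deficient replicate 1 its direction turned, to a log2 fold change of 0.19 (limma adjusted p = 0.256, unadjusted p = 0.0485), with 79.2 FPKM in WT and 90.6 in the 2 remaining libraries. T cell markers differed in direction in that library. Cd3e, a T cell receptor subunit gene, was lowest there, at 118 FPKM against 194 to 259 in the other 5, and so was Trac, at 936. Cd4 was highest there, at 436 FPKM against 329 to 359, and Cd3g, Foxp3 and Il2ra were not lowest. Whether the low Cdkn1b there goes with the loss of mitochondrial transcripts was not tested.

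Cdkn1a (ENSMUSG00000023067, chromosome 17, 29090976 to 29100727, plus strand) varied most within WT. It was at 5.38, 18.8 and 4.38 FPKM in WT and at 14.3, 11.7 and 24.9 in deficient aTreg. WT replicate 2 exceeded both other WT libraries and also lay above 2 of the 3 deficient ones. The highest WT value was 4.30 times the lowest, against 2.12 times among deficient libraries. The log2 fold change was 0.96 (SE 0.548, 95% interval -0.37 to 2.30, limma adjusted p = 0.450), an interval that holds 0 and large positive differences alike. Without WT replicate 2 the log2 fold change was 1.55 (limma adjusted p = 0.222, unadjusted p = 0.00594), from a WT mean of 4.88 FPKM, and the groups no longer overlapped. The myeloid marker sum was 106, 21.8 and 43.1 FPKM in WT and 12.3, 44.5 and 90.9 in deficient libraries, lowest among WT in the library with the highest WT Cdkn1a and highest among deficient libraries in the one with the highest deficient Cdkn1a. The part of myeloid cells in the Cdkn1a values was not tested. The ratio of Cdkn1b to Cdkn1a within a library was 13.9, 4.24 and 18.9 in WT and 3.58, 7.93 and 3.54 in deficient aTreg, which overlapped, and this ratio too was chosen after the values were seen.

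**Figure D2:**
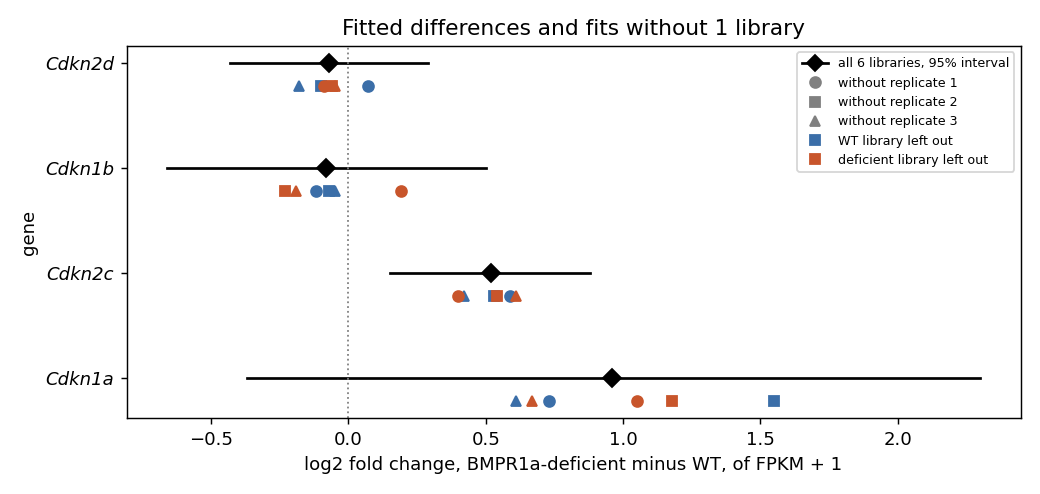
Log2 fold change (BMPR1a-deficient minus WT, of FPKM + 1) of the 4 tested inhibitors with its 95% interval in black, and below each the values when 1 library is left out, coloured by the group of that library and shaped by its replicate number. Cdkn2c stays between 0.40 and 0.61, Cdkn1a moves between 0.61 and 1.55, and Cdkn1b and Cdkn2d cross 0.

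The 230 bases before an annotated start are shown for Cdkn2c, Cdkn1a and Cdkn1b. Cdkn2c is the inhibitor whose groups did not overlap, Cdkn1a the one that varied most within a group and Cdkn1b the most abundant Cip/Kip gene. Only windows that overlap no annotated exon of the same gene are printed. They come from RefSeq on GRCm38.p6, are written 5′ to 3′ on the gene's own strand, and have capitals at each match to the GC box GGGCGG on either strand.
Cdkn2c, chr4:109665373-109665602, minus strand: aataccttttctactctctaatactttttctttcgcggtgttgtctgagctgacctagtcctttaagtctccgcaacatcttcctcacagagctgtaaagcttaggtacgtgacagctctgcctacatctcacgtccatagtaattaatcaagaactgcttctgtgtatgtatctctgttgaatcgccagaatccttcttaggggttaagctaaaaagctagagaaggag
Cdkn1a, chr17:29093539-29093768, plus strand: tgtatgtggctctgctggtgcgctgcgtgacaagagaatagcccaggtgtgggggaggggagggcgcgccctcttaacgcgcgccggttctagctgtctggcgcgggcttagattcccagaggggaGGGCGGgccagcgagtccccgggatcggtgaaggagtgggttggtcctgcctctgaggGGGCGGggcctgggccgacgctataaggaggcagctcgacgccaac
Cdkn1b, chr6:134920171-134920400, plus strand: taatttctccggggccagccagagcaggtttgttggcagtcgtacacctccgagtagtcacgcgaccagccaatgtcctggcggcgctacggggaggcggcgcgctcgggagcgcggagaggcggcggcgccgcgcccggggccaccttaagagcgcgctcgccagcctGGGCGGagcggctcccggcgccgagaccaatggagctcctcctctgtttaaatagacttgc
The windows of Cdkn1a and Cdkn1b were rich in G and C (67.4% and 68.3%) and in CpG dinucleotides (19 and 28), and held 2 and 1 GC boxes. The Cdkn2c window had 42.2% G and C, 6 CpG and 0 GC boxes. Over 32851 RefSeq windows of the same length the median was 52.6% G and C with 5 CpG, and 32.1% held a GC box. In all 8 motifs were searched on both strands, and none contains another. CCAAT, found in 32.1% of all windows, had 2 matches in the Cdkn1b window and 0 in the other two. The remaining 6 had 0 matches in these 3 windows: the FOXO motif GTAAACA (in 2.89% of all windows), the SMAD palindrome GTCTAGAC (0.128%), the TATA box TATAAA (11.4%), the E-box CACGTG (5.75%) and the E2F motifs TTTCCCGC (0.871%) and TTTGGCGC (0.405%). RefSeq places a further start of Cdkn2c at 109666756, inside an exon of another Cdkn2c transcript in GENCODE M21, and the window before that start had 78.3% G and C, 29 CpG and 3 GC boxes. The printed Cdkn2c window lies downstream of that start, in an intron of that transcript. Cdkn1a likewise has a second start, at 29090979, whose window had 54.8% G and C, 2 CpG and 0 GC boxes. The contrast between the printed windows of these 2 genes is thus the opposite at their other starts, and gene-level FPKM does not say which start was used.

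The 3 scarce inhibitors were read from few fragments. The size of the smallest steps in the FPKM of genes with simple models pointed to about 30200000 to 38600000 fragments per library, and on that estimate Cdkn1c rested on about 23 to 61 fragments, Cdkn2a on 5 to 14 and Cdkn2b on 5 to 15, against 1815 to 3502 for Cdkn2c. They were not put into the main fit, and the exact permutation tests were two-sided.

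Cdkn1c (ENSMUSG00000037664, chromosome 7, 143458339 to 143461050, minus strand) encodes p57 and is imprinted, with expression from the maternal copy. It was at 0.425, 0.430 and 0.506 FPKM in WT and at 0.897, 0.379 and 0.392 in deficient aTreg (exact permutation p = 1.0). The high value was in deficient replicate 1, and the other deficient libraries lay below each WT library. Its neighbour Tssc4, the nearest expressed gene on the left at 387246 bases, showed the same single high library, at 33.7 FPKM against 14.7 to 18.4 in the other 5. Nap1l4, the nearest expressed gene on the right, was at 91.1 FPKM there and at 69.2 to 89.5 elsewhere.

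Cdkn2b (ENSMUSG00000073802, chromosome 4, 89306299 to 89311039, minus strand) encodes p15INK4b. It was at 0.125, 0.148 and 0.198 FPKM in WT and at 0.145, 0.235 and 0.286 in deficient aTreg (exact permutation p = 0.3). The groups overlapped. The p15 transcripts stayed under 0.3 FPKM in every library. Each culture had received TGF-beta, so these values cannot say what TGF-beta did to Cdkn2b.

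Cdkn2a (ENSMUSG00000044303, chromosome 4, 89274471 to 89294653, minus strand) was at 0.169, 0.380 and 0.305 FPKM in WT and at 0.448, 0.278 and 0.207 in deficient aTreg (exact permutation p = 0.8). The groups overlapped in part. This locus makes p16INK4a, a CDK inhibitor, and p19ARF, which binds MDM2 and spares p53, from separate first exons spliced to the same second exon. The 30 coding bases on each side of that junction in GENCODE M21 show what a gene-level value merges, with the shared second exon in capitals.
Cdkn2a-201, first exon chr4:89281986-89282192: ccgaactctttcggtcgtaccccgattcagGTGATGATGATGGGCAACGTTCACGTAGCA
Cdkn2a-202, first exon chr4:89294334-89294653: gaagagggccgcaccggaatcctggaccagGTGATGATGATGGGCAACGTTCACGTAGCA
The second exon, 341 bases at 89276645 to 89276985, enters both transcripts. The first exon of Cdkn2a-201 adds 126 coding bases, a whole number of codons, and that of Cdkn2a-202 adds 190, which leaves 1 base over, so the shared bases are read in different frames into proteins of 168 and 169 codons. The 2 products cannot be told apart in these values. Mtap, the nearest expressed gene beside Cdkn2a and Cdkn2b, was at 8.60 to 14.5 FPKM, so the low values of the pair were not shared by it.

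Most genes that INK4 and Cip/Kip proteins act on were expressed. An exception was the D-type cyclin gene Ccnd1, at 0.249 to 0.512 FPKM in WT and 0.395 to 0.770 in deficient libraries, which was not tested. In a list of CDKs, cyclins and their regulators, 0 of 19 tested genes passed the threshold (limma), beside 1.07% of all genes tested. An unadjusted p under 0.05 was seen for 4 (21.1%, beside 15.2% of all genes). The median log2 fold change was 0.26, against 0.04 over all genes tested. Cdk4, the main partner of INK4 proteins, was at 185, 189.5 and 171 FPKM in WT and at 257, 243 and 209 in deficient aTreg, without overlap (log2 fold change 0.37, SE 0.123, limma adjusted p = 0.255). Ccnd2, a D-type cyclin, was at 53.7, 61.6 and 60.6 FPKM in WT and at 70.5, 75.1 and 71.1 in deficient aTreg (0.30, SE 0.0987, limma adjusted p = 0.256). Cdk6 was low, at 1.17 to 2.34 FPKM in WT and 2.26 to 3.40 in deficient libraries, and Wee1, a kinase that holds back mitotic CDK, was at 4.58 to 5.90 and 6.54 to 8.42. Cdk2, the main partner of Cip/Kip proteins, overlapped at 25.5 to 31.3 and 22.1 to 29.7 FPKM.

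INK4 transcripts were also set against those of their partners within each library. The 4 INK4 genes summed to 0.756, 0.599 and 0.592 times the FPKM of Cdk4 and Cdk6 together in WT and to 0.514, 0.499 and 0.553 times in deficient libraries. Each deficient library lay below each WT library. Most of the INK4 sum was Cdkn2d, at 0.617, 0.474 and 0.472 times in WT and 0.360, 0.366 and 0.414 in deficient libraries. Cdkn2c, at 0.138, 0.122 and 0.117 times in WT and 0.151, 0.132 and 0.137 in deficient aTreg, overlapped. For the Cip/Kip genes the sum relative to Cdk2 was 2.62, 3.17 and 3.44 in WT and 3.00, 3.54 and 3.99 in deficient libraries, and it overlapped. These ratios were also chosen after the values were seen, so no test of them is given, and they compare RNA, not protein. They are among 7 ratios computed, of which 3 had groups that did not overlap. The ratios of the INK4 sum and of Cdkn2d share the denominator of Cdk4 and Cdk6. Cdkn2d by itself overlapped between the groups, whereas Cdk4 by itself was higher in each deficient library, so these ratios do not show lower INK4 transcripts.

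**Figure D3:**
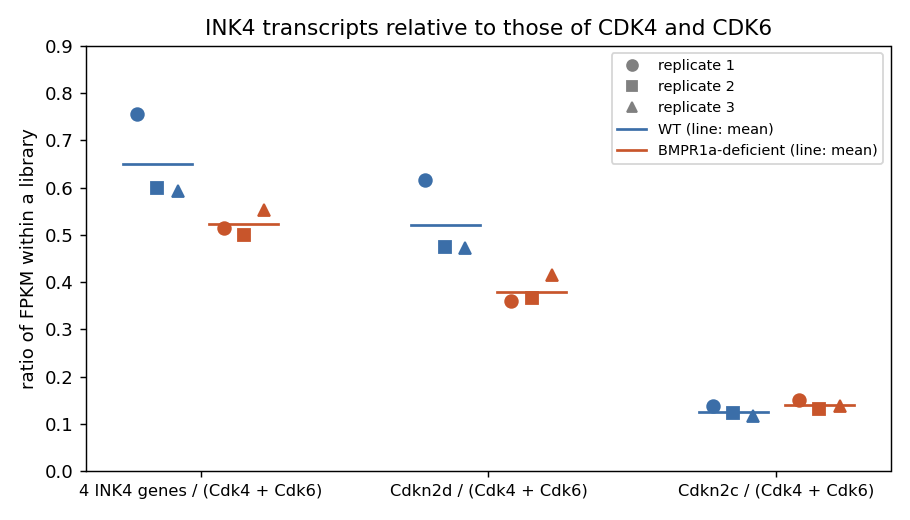
Ratio of FPKM within each library of the 4 INK4 genes, of Cdkn2d and of Cdkn2c to the sum of Cdk4 and Cdk6, with WT in blue, BMPR1a-deficient in orange, a marker shape per replicate and a line at each mean (n = 3). The first ratio is 0.592 to 0.756 in WT and 0.499 to 0.553 in deficient libraries, and that of Cdkn2c overlaps. Cdk4 by itself is higher in each deficient library, and Cdkn2d by itself overlaps.

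Downstream, 0 of 20 tested RB and E2F genes passed the threshold in limma, beside 1.07% of all genes tested. An unadjusted p under 0.05 was found for 2 (10.0%, beside 15.2% of all genes). The log2 fold change was positive for 17, with a median of 0.21, against 0.04 over all genes tested. E2f7, an E2F that represses, was at 3.04, 2.81 and 2.36 FPKM in WT and at 5.47, 4.14 and 4.19 in deficient aTreg (log2 fold change 0.58, SE 0.141, limma adjusted p = 0.149). E2f8, of the same kind, was at 9.93 to 13.5 and 14.1 to 16.3, the E2F partner gene Tfdp2 at 6.57 to 7.80 and 8.51 to 9.20, and Foxm1, a driver of mitotic genes, at 29.2 to 37.7 and 36.8 to 41.7. Of 34 tested proliferation genes 0 passed, and 5 had an unadjusted p under 0.05 (14.7%, beside 15.2% of all genes). In 33 of these genes the log2 fold change was positive, with a median of 0.32, against 0.04 over all genes tested. Their mean relative to WT was 0.52 in deficient replicate 1 and 0.23 and 0.22 in the others, and it was 0.23 in WT replicate 2 and -0.31 in WT replicate 3. The smallest adjusted p among them belonged to Ttk, Kif20a, Ccnf and Rrm1. Ccnf, the F-box cyclin, was at 24.7, 23.7 and 16.1 FPKM in WT and 45.0, 29.9 and 29.5 in deficient aTreg, and Rrm1, a ribonucleotide reductase subunit, was at 45.7 to 75.7 and 76.1 to 109. Kif20a, a mitotic kinesin, had a log2 fold change of 0.45 (SE 0.128, limma adjusted p = 0.194), and Ttk, a spindle checkpoint kinase, one of 0.48 (SE 0.133, limma adjusted p = 0.188).

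Among genes linked to degradation of the inhibitors, 0 of 17 passed in limma, beside 1.07% of all genes tested. An unadjusted p under 0.05 was reached by 2 (11.8%, beside 15.2% of all genes). The median log2 fold change was 0.07, against 0.04 over all genes tested. Dtl, the substrate receptor that directs p21 to degradation in S phase, was at 10.4, 13.5 and 8.62 FPKM in WT and at 19.5, 15.6 and 16.4 in deficient aTreg (log2 fold change 0.63, SE 0.175, limma adjusted p = 0.189). Ubac1, a subunit of a ligase for p27, was at 19.8 to 24.1 and 24.8 to 32.5 FPKM. Ddb1, the adaptor that carries Dtl, was at 71.6 to 92.6 and 91.0 to 94.5, and Fzr1, an activator of the anaphase-promoting complex, at 32.4 to 45.3 and 45.3 to 49.0. The list does not separate genes that speed the loss of inhibitors from those that slow it. Skp2, which directs p27 to degradation, was at 2.11 to 3.42 and 2.62 to 3.51 FPKM and overlapped.

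Of 38 tested transcriptional regulators of the inhibitors, 1 was higher and 0 were lower past the threshold, against 0.746% and 0.321% of all genes, and 19 log2 fold changes lay on each side of 0. The called gene was Stat5a, which carries IL-2 signals, at 47.9, 50.7 and 48.9 FPKM in WT and 79.3, 89.5 and 77.9 in deficient aTreg (log2 fold change 0.73, limma adjusted p = 0.0399), a call that ended in 5 of the 6 leave-one-out fits. Smad3, the TGF-beta signal carrier that raises Cdkn1a and Cdkn2b in epithelial cells, was at 5.66, 8.57 and 8.42 FPKM in WT and 2.46, 4.53 and 3.78 in deficient aTreg (-0.91, SE 0.229, limma adjusted p = 0.157). Cbx7, a Polycomb protein that represses the Cdkn2a locus, was at 45.1, 37.1 and 43.6 and at 21.1, 28.6 and 29.5 FPKM (-0.66, SE 0.159, limma adjusted p = 0.148). Kdm6b, a histone demethylase that opposes Polycomb there, was at 8.47, 7.55 and 10.3 and at 19.1, 14.0 and 12.5 FPKM (0.72, SE 0.186, limma adjusted p = 0.165). The groups of these 3 genes did not overlap. In the whole list 5 genes were higher and 5 lower without overlap, of 38, beside 26.3% of all genes tested in either direction. Trp53 itself, at 68.6 to 69.5 FPKM in WT and 55.6 to 81.3 in deficient aTreg, overlapped, as did Foxo1 and Myc.

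Other targets of p53 were set beside Cdkn1a. Of 29 tested, 1 was higher and 0 were lower past the threshold in limma, against 0.746% and 0.321% of all genes. Unadjusted p was under 0.05 for 12 (41.4%, beside 15.2% of all genes). The median log2 fold change was 0.33, against 0.04 over all genes tested. Without overlap 11 were higher and 1 lower in deficient libraries, beside 26.3% of all genes tested in either direction. The list was chosen with earlier results of these data known, so these shares are not a test of it. The called gene was Pmaip1, a BH3-only death gene, at 3.30, 3.76 and 2.34 FPKM in WT and 9.84, 10.6 and 11.3 in deficient aTreg (limma adjusted p = 0.0182), also lost in 5 of the 6 leave-one-out fits. Phlda3, an inhibitor of AKT, was at 2.20, 6.42 and 2.76 FPKM in WT and at 15.2, 7.39 and 13.1 in deficient aTreg (log2 fold change 1.48, SE 0.392, limma adjusted p = 0.173). Like Cdkn1a it was highest among WT libraries in replicate 2 and lowest among deficient libraries in replicate 2. Plk3, a stress kinase, was at 3.78 to 4.82 and 5.46 to 8.28 FPKM, and Xpc, a DNA damage sensor, at 7.86 to 8.74 and 11.4 to 14.1, and neither was raised in WT replicate 2. The mean of the list relative to WT was 0.24, 0.29 and 0.46 in deficient replicates 1, 2 and 3, and 0.11 in WT replicate 2.

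**Figure D4:**
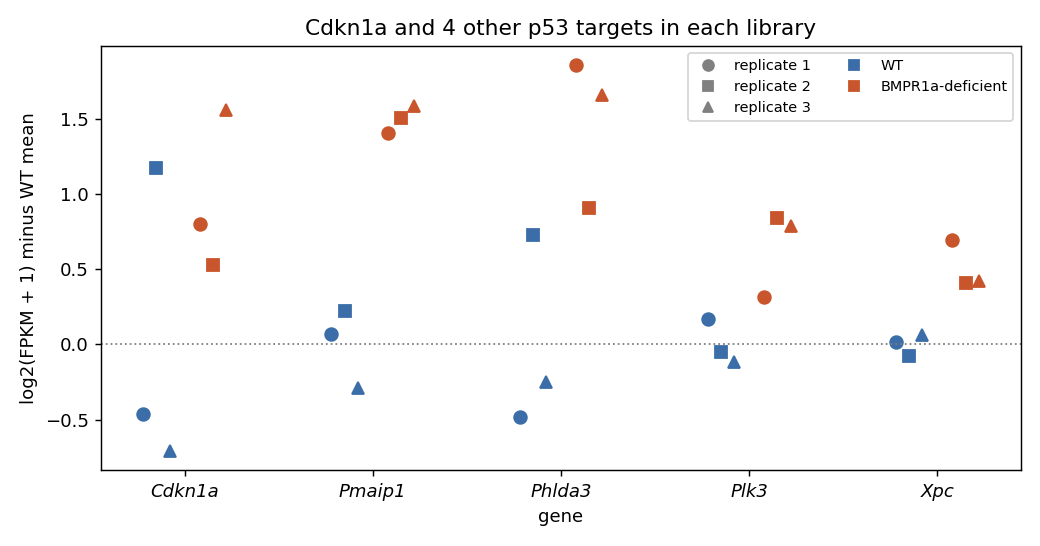
Log2(FPKM + 1) minus the WT mean for Cdkn1a and the 4 p53 target genes with the smallest adjusted p, with WT in blue, BMPR1a-deficient in orange and a marker shape per replicate. WT replicate 2 (blue square) lies among the deficient libraries for Cdkn1a and below all of them for Pmaip1, Phlda3, Plk3 and Xpc. These 4 were picked by their adjusted p in this same comparison, which favours groups that part, so the contrast with Cdkn1a is not a test.

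The 4 expressed inhibitors did not follow each other across the 6 libraries. On log2(FPKM + 1), Pearson's r was 0.47 between Cdkn1a and Cdkn2c, -0.53 between Cdkn1b and Cdkn2c, and between -0.26 and 0.18 for the other 4 pairs. All points share library and depth, and these values are descriptions. The genes whose pattern was most like that of Cdkn2c among 9995 named protein-coding genes were Brd3 (r = 0.993), Iqgap3 (0.992) and Gnb4 (0.992). Those most like Cdkn1a were Ticam2 (0.989), Penk (0.985) and Gorasp2 (0.983). Penk, the proenkephalin gene, was at 6.02, 14.7 and 3.67 FPKM in WT and at 11.8, 11.3 and 21.3 in deficient aTreg, and so had the same high WT replicate 2. Cdkn1b was most like Dyrk1a (0.998), Rab11fip1 (0.996) and Laptm4a (0.995), and Cdkn2d most like Pld2 (0.978), Tmbim6 (0.970) and Acot8 (0.949). The matches of Cdkn1b shared its low deficient replicate 1, with Dyrk1a at 19.4 FPKM there against 24.7 to 28.5 elsewhere and Laptm4a at 21.5 against 35.3 to 42.8. Picking the highest of 9995 correlations over 6 libraries favours values of r near 1.

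The nearest expressed neighbours of the 4 expressed inhibitors showed no called difference either. Faf1, 9399 bases from Cdkn2c, was at 10.6 to 12.6 FPKM in WT and 12.5 to 13.4 in deficient libraries, and the clone-named 9630013D21Rik, 3023 bases on the other side, at 10.4 to 16.3 and 11.5 to 15.6. Beside Cdkn1a, Srsf3 was at 133 to 167 and 158 to 179 FPKM and the pseudogene Rpl35a-ps3 at 119 to 136 and 103 to 147. Beside Cdkn1b, Gpr19 was at 3.51 to 3.94 and 2.32 to 3.40 FPKM and Ddx47 at 54.2 to 59.3 and 50.2 to 53.8, both without overlap and both lower in deficient libraries (limma adjusted p = 0.439 and 0.595). Beside Cdkn2d, Kri1, only 441 bases away, was at 23.4 to 24.5 and 22.4 to 28.7 FPKM, and Ap1m2 at 1.39 to 1.76 and 1.76 to 2.70.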

How the data were processed

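Per the file headers and labels, the authors deposited 1 table of FPKM per gene and library, 6 libraries in all, and TopHat2, Cufflinks and Cuffdiff on GRCm38.p4 are named per the submitters' processing notes. Their versions, settings and annotation, and whether strand was used, were not given in the sources used here. Without counts, no count model could be applied to the FPKM. Symbols came from GENCODE M21 (GRCm38) for 24876 of 25759 identifiers (96.6%), and 0 columns were unmapped.

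Genes with a mean of at least 1 FPKM were fitted on log2(FPKM + 1) with limma 3.58.1 (R 4.3.3), group as factor, eBayes with trend, two-sided, Benjamini-Hochberg at 0.05 over 13413 genes. Fold changes on this scale understate the change of low genes. On data simulated for this comparison with 13412 genes, the fit recovered 59% of changes of log2 size 1 and 84% of size 2, and 6.54% of 153 calls were unchanged genes. The changed genes were drawn from those above about 10 FPKM, and changes as small as that of Cdkn2c were not simulated.

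The members and the 6 gene lists were chosen with earlier results of these data known. Named genes are the 7 members, Bmpr1a, up to 4 genes per list with the smallest adjusted p plus called genes, nearest expressed neighbours, and the 3 most correlated genes per tested member. Cell type markers are named as measured, and Cdk2, Skp2, Trp53, Foxo1 and Myc were chosen after their values were seen. Depth was estimated from the densest low value of FPKM times length in 4318 genes with 1 exon model and is approximate. Alternatives, 18 in all, varied the pseudocount, filter, scaling, eBayes settings, weights, replicate block, biotypes and each library left out. Leaving out a library kept the gene set of all 6; a first run that filtered anew on the remaining 5 was replaced after its values were seen. The within-library ratios were chosen after values were seen.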

Additional observations from a re-analysis of the deposited data

How the results depend on the processing

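In each of the 18 alternatives 0 of the inhibitors was called. Cdkn2c and Cdkn1a kept their direction in all of them, with log2 fold changes of 0.40 to 0.61 (limma adjusted p 0.0520 to 0.567) and 0.61 to 1.55 (adjusted p 0.177 to 0.776). The lowest adjusted p of Cdkn2c came with sample weights, where 1240 genes in all were called, against 143 in the main setting. Cdkn1b turned to 0.18 with sample weights (limma adjusted p = 0.285) and ranged from -0.23 to 0.19 when 1 library was left out, turning at 0.19 without deficient replicate 1. Cdkn2d ranged from -0.18 to 0.07, turning at 0.07 without WT replicate 1. The cause was not tested.

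The genes of the 6 lists called numbered 2, but 14 with sample weights, 0 with the replicate block (limma adjusted p = 0.149 for Stat5a and 0.108 for Pmaip1) and 0 to 3 when 1 library was left out, where fewer samples are fitted. All genes called numbered 10 with the replicate block, 296 among protein-coding genes only, and 22 to 227 when 1 library was left out. The replicate block rests on numbers in the titles. Deviations of same-numbered libraries correlated at 0.010, 0.064 and 0.052, and those of differently numbered ones at -0.093 to 0.041. The labels do not say if same-numbered libraries were prepared together, and these correlations cannot decide it. Cdkn1c, Cdkn2a and Cdkn2b rest on few fragments and entered the fit only under the lower filters.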
